A study of Mus musculus with 12 samples.

Results

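Dntt, the gene of terminal deoxynucleotidyl transferase, and 8 further lymphocyte or thymocyte genes (Rag1, Ptcra, Cd3d, Cd3e, Cd4, Cd8a, Lck and Ms4a1) were followed over 12 aortic microarrays. The 9 genes were found by their gene name on the array, which gave 12 of its 55681 probes and 9 of its 34797 genes. Of the 9, 6 passed the filter on dim probes and were among the 22755 genes tested, and Rag1, Ptcra and Cd8a did not pass. The set was chosen by the day 3 signal of Dntt, which fell in both genotypes, so its challenge responses below are a description and carry no test.

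Gene expression was measured in total RNA of the aorta of male mice, aged 11 to 14 weeks, of mixed 129S5/SvEvBrd, C57BL6 and SJL background. All 4 groups were homozygous for a floxed allele of Socs3, a feedback inhibitor of Stat3 signalling. The smSocs3-KO mice also carried a Cre transgene driven by the SM22 promoter, which is active in smooth muscle, and the WT mice were littermates without it. Each genotype was sampled before challenge and after 3 days of BAPN at 150 mg/kg/day and AngII at 1000 ng/kg/min, delivered together by minipump as a model of aortic dissection, with 3 arrays in each group. BAPN inhibits the crosslinking of collagen and elastin. The labels name the arrays as separate samples but do not say how animals were assigned to them, so the p-values measure the spread between these samples.

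Some features of the arrays bear on every value below. Socs3 itself had group means of 0.298 in WT and 0.784 in smSocs3-KO before challenge, and of 1.54 and 3.04 at day 3, on the log2 scale described next. It was not lower under the knockout label in either state (limma adjusted p = 1 and 0.199), and the arrays are therefore called those labelled smSocs3-KO. The 6 WT arrays and replicate 1 of the unchallenged smSocs3-KO arrays were on one slide and the other 5 arrays on a second, so genotype and slide largely cannot be told apart. WT day 3 replicate 4 stood apart from its group, with the leukocyte gene Ptprc at -2.53 against -0.66 and -0.84 on the other two arrays. Without it, 3667 genes were called in the WT response in place of 1063. The smooth muscle markers Myh11, Acta2, Tagln and Cnn1 were well above background on all 12 arrays.

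V(D)J recombination assembles the genes of antigen receptors in developing lymphocytes. The Rag1 and Rag2 proteins cut the DNA, the end joining proteins repair it, and terminal deoxynucleotidyl transferase adds nucleotides without a template at the junctions. Dntt, Rag1 and Ptcra, the invariant partner of the T cell receptor beta chain before the alpha chain is made, belong to immature thymocytes, and Dntt and Rag1 also to early B cell progenitors in bone marrow. Mature T cells keep the CD3 chains (Cd3d, Cd3e, Cd3g), the kinase Lck and the coreceptors Cd4 or Cd8, and mature B cells carry CD20, the product of Ms4a1.

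Each reading rests on a 60-base probe, and the 30 bases at its 3′ end (bases 31 to 60) are shown for the members on which the comparisons turn, with positions on mouse build mm9 as given by the array files. The capitals mark AATAAA, the usual polyadenylation signal, wherever it occurs.
Dntt, chr19:41133936-41133995, plus strand: tgtctgaatctctgtgtattgccAATAAAa
Rag1, chr2:101478813-101478872, minus strand: tactgtatggcagttgttctagttttccta
Ptcra, chr17:46892827-46892886, minus strand: ctgggcacaatacaaaagtcttataaaaca
Cd3d, chr9:44794171-44794402, plus strand: agatacccagtacagccgtcttggagggaa
Cd3e, chr9:44806828-44806887, minus strand: taatgcaaaaggcAATAAAgtgtattggct
Cd4, chr6:124814711-124814770, minus strand: acagaaaAATAAAggctataAATAAAatgc
Cd8a, chr6:71328911-71328970, plus strand: tctatctattgttactatcattttatacct
Lck, chr4:129225614-129225673, minus strand: tgcctagcacacaccaggagctcAATAAAa
Ms4a1, chr19:11325367-11325426, minus strand: gagtagtttatttggtctttcatgattcac
AATAAA was present in this window of 4 of the 12 member probes, those of Dntt, Cd3e, Cd4 and Lck, and of 4546 (8.16%) of all 55681 probes. The 60 bases of the Cd3d probe span 232 bases of the genome, so that a gap of 172 bases divides them and the probe reads a spliced transcript. The exons and untranslated regions of mm9 were not used here, and a match to AATAAA is only a description of these letters.

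Values are the log2 processed signal minus the 75th percentile of the array, so 0 is the signal that 75% of spots do not exceed. A level is read within 1 probe only, since probes differ in brightness. A spot was well above background when its signal exceeded the background by 13 SD of the background.

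Dntt was well above background throughout, and in each genotype its 3 day 3 arrays lay below its 3 unchallenged arrays. In WT mice its levels were -0.61, 0.28 and -2.06 before challenge and -2.96, -2.71 and -3.82 at day 3. In mice labelled smSocs3-KO they were -0.08, -2.82 and -0.66 before challenge and -3.50, -4.07 and -3.81 at day 3. Between genotypes, the lowest unchallenged smSocs3-KO array lay within the range of the WT day 3 arrays. The gap within each genotype is the pattern that chose the gene. The group means were -0.80 ± 1.18 and -3.16 ± 0.58 in WT and -1.19 ± 1.44 and -3.79 ± 0.29 in smSocs3-KO (SD, n = 3 each). The signal was thus 5.16-fold lower at day 3 in WT (log2 difference -2.37) and 6.09-fold lower in smSocs3-KO (-2.61). Most of the spread lay before challenge, where replicate 3 of each genotype was far below the other two arrays of its group. Because RNA came from whole tissue, fewer cells of a type and less RNA per cell cannot be told apart. With WT day 3 replicate 4 left out, the WT difference was -2.04, and without the unchallenged smSocs3-KO array of the first slide, the smSocs3-KO difference was -2.06. Without its own unchallenged replicate 3, the difference was -3.00 in WT and -3.42 in smSocs3-KO. Over all omissions of single arrays the WT and smSocs3-KO differences ran from -3.00 to -1.83 and from -3.42 to -2.06. After normexp background correction the differences were -1.44 and -1.59.

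**Figure D1:**
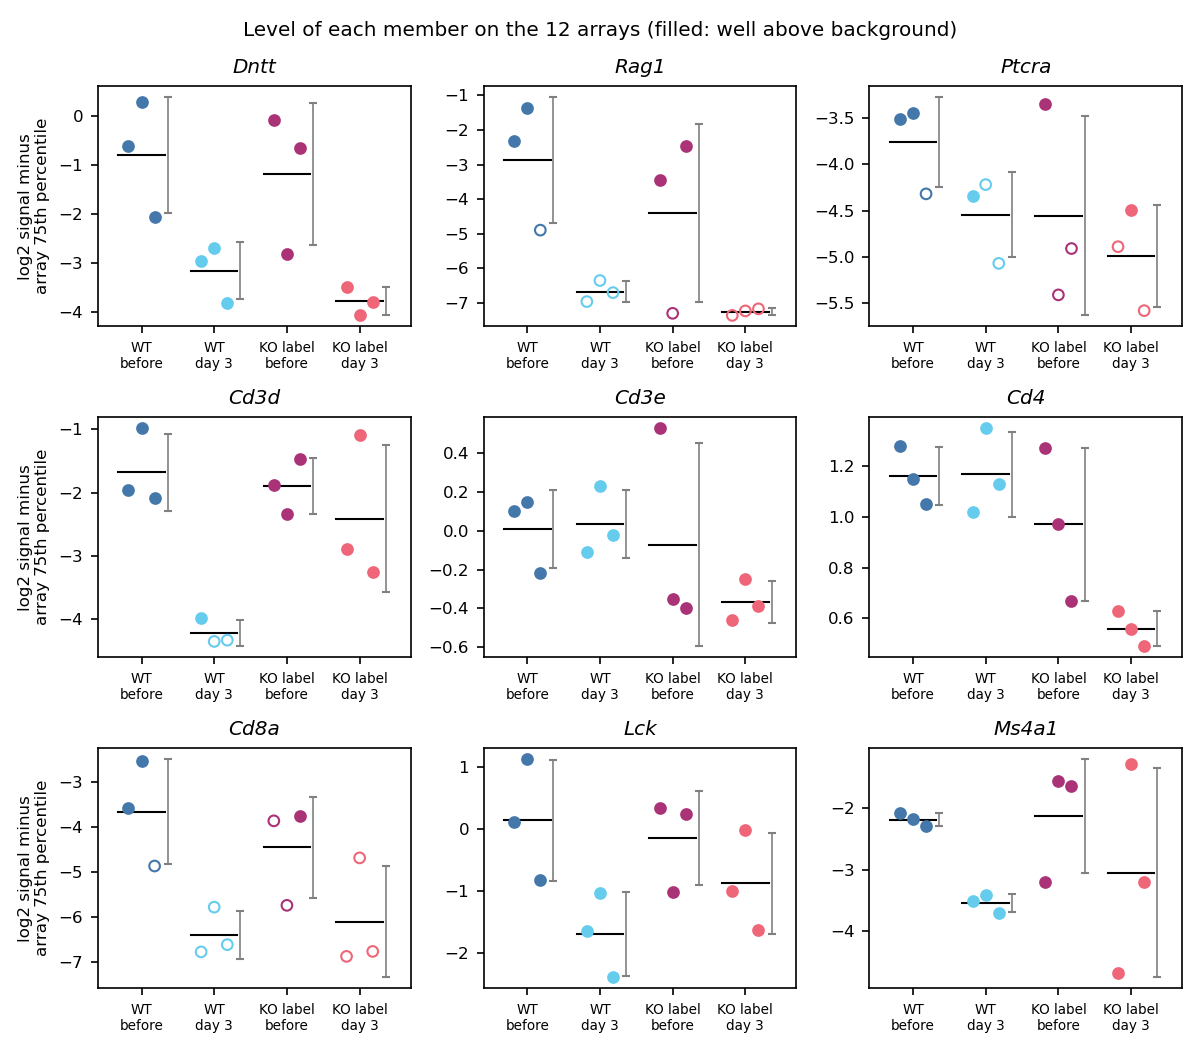
Level of each of the 9 genes on the 12 arrays (y axis, log2 signal minus the 75th percentile of the array, with a scale of its own for each gene) in the 4 groups (x axis). Points are arrays, filled where the probe was well above background, horizontal lines are group means and grey bars are ± 1 SD (n = 3). The day 3 points of Dntt lie between -4.07 and -2.71, below the lowest unchallenged point of their own genotype, while Cd3e and Cd4 keep to a range of about 1 log2 unit.

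Genotype differences of Dntt were small beside the spread. Arrays labelled smSocs3-KO differed from WT by -0.39 before challenge (SE 0.70, 95% confidence interval -1.95 to 1.16, limma adjusted p = 1) and by -0.63 at day 3 (SE 0.70, interval -2.18 to 0.93, limma adjusted p = 0.696). Within the first slide, the single unchallenged smSocs3-KO array lay 0.71 above the WT mean, the opposite direction. With slide as a block the day 3 difference was 1.02, a value that rests on that same array, since the day 3 arrays of the genotypes share no slide. The interval excludes neither a fall nor a rise of 1 log2 unit before challenge.

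Rag1 had the widest range of the 9 genes, and on most arrays it was not well above background. Its brighter probe, spotted 2 times per array, read -2.33, -1.37 and -4.90 in unchallenged WT mice and -6.97, -6.36 and -6.71 at day 3. On the arrays labelled smSocs3-KO it read -3.44, -7.31 and -2.45 before challenge and -7.37, -7.24 and -7.18 at day 3. Both spots were well above background on WT replicates 1 and 2 and smSocs3-KO replicates 1 and 4 before challenge, and on none of the 6 day 3 arrays. These 4 arrays were also the 4 with the highest Dntt. Rag1 was at least 3.01-fold higher before challenge than at day 3 in WT and at least 1.55-fold higher in smSocs3-KO, in each case with 2 of 3 unchallenged arrays well above background. For these bounds the day 3 mean was taken at the lowest signal well above background on each array, or at the signal of the probe itself where that was higher. The measured differences were -3.81 and -2.86, and in a fit of 34794 genes with no filter on dim probes they had limma adjusted p = 0.127 and 0.227. The second Rag1 probe was not well above background on any array.

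Ptcra was near background throughout. It read -3.51, -3.45 and -4.32 in WT before challenge and -4.34, -4.22 and -5.07 at day 3, and -3.35, -5.41 and -4.91 in smSocs3-KO before challenge and -4.89, -4.49 and -5.58 at day 3. The groups overlapped in both genotypes, and 5 arrays, of which 3 were unchallenged, gave a signal well above background. Without the filter its differences were -0.78 in WT and -0.43 in smSocs3-KO (limma adjusted p = 0.466 and 0.628).

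Cd8a, one chain of the CD8 coreceptor, was read by 10 spots per array that were all well above background on 3 unchallenged arrays. The levels were -3.59, -2.54 and -4.87 in WT before challenge and -6.77, -5.78 and -6.61 at day 3. They were -3.87, -5.74 and -3.76 in smSocs3-KO before challenge and -6.87, -4.69 and -6.76 at day 3. Cd8a was thus at least 1.73-fold higher before challenge than at day 3 in WT (2 of 3 unchallenged arrays well above background) and at least 1.38-fold higher in smSocs3-KO (1 of 3). The measured differences of -2.72 and -1.65 had limma adjusted p = 0.112 and 0.282 in the fit without the filter. The smSocs3-KO groups overlapped because day 3 replicate 3, at -4.69, lay above one unchallenged array. The second Cd8a probe was well above background on 1 array, the unchallenged smSocs3-KO replicate 1.

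Cd3d, a chain of the CD3 complex that carries the signal of the T cell receptor, was the only one of the 5 members tested for a challenge response to pass the adjusted threshold, and it did so in WT mice. It read -1.96, -0.98 and -2.09 before challenge and -3.98, -4.35 and -4.33 at day 3 in WT, with no overlap. Groups that did not overlap, with day 3 the lower, were found for 15.3% of all tested genes in WT. The fall was 5.83-fold (log2 difference -2.54, SE 0.50, interval -3.66 to -1.43, limma adjusted p = 0.0333). At day 3 the probe was well above background on 1 of the 3 WT arrays. In the WT response 1.17% of all genes were called lower and 4.67% were called in either direction. The call was lost when any array of WT before challenge, WT day 3 replicate 1 or 3 or smSocs3-KO replicate 4 before challenge was left out (limma adjusted p between 0.0544 and 0.155), and it remained without WT day 3 replicate 4 (-2.49, adjusted p = 0.0203). After normexp correction the difference was -1.0 (adjusted p = 0.0867).

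On the arrays labelled smSocs3-KO, Cd3d read -1.88, -2.34 and -1.47 before challenge and -2.89, -1.09 and -3.25 at day 3. Day 3 replicate 3 was higher than every unchallenged array of its genotype, and the other two day 3 arrays were lower than all of them. The difference was -0.52 (interval -1.63 to 0.60, limma adjusted p = 0.532). At day 3 the level was 1.81 higher under the smSocs3-KO label than in WT (SE 0.50, interval 0.70 to 2.92, limma adjusted p = 0.121). These groups did not overlap, which held in that direction for 7.21% of all tested genes. The test of the difference between the 2 responses gave 2.03 (interval 0.46 to 3.60, limma adjusted p = 0.88), so the responses were not shown to differ. Without day 3 replicate 3 the smSocs3-KO response was -1.17 (adjusted p = 0.109) and the day 3 genotype difference 1.15 (adjusted p = 0.225).

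Lck, the kinase that starts T cell receptor signalling, was measured above the detection limit on every array. It read 0.12, 1.13 and -0.82 before challenge and -1.65, -1.03 and -2.39 at day 3 in WT, with no overlap, as for 15.3% of all tested genes in that direction. The difference was -1.83 (3.56-fold lower, SE 0.59, interval -3.12 to -0.54), and its limma adjusted p of 0.0851 missed the threshold. On the smSocs3-KO arrays it read 0.34, -1.02 and 0.25 before challenge and -1.0, -0.01 and -1.62 at day 3, a difference of -0.74 (interval -2.03 to 0.55, limma adjusted p = 0.444). These groups overlapped, since day 3 replicates 2 and 3 lay above unchallenged replicate 3. As with Dntt, replicate 3 was the lowest unchallenged array in both genotypes.

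Cd3e and Cd4 were also measured on every array and had the narrowest intervals of the tested members. Cd3e, another CD3 chain, read 0.10, 0.15 and -0.22 before challenge and -0.11, 0.23 and -0.02 at day 3 in WT, and 0.53, -0.35 and -0.40 before challenge and -0.46, -0.25 and -0.39 at day 3 in smSocs3-KO. Its response was 0.02 in WT (interval -0.51 to 0.55, limma adjusted p = 0.964) and -0.29 in smSocs3-KO (interval -0.83 to 0.24, adjusted p = 0.458). A fall as large as that of Cd3d in WT, which belongs to the same complex, lies outside both intervals. Cd4, the coreceptor of helper T cells, read 1.28, 1.15 and 1.05 before challenge and 1.02, 1.35 and 1.13 at day 3 in WT. On the smSocs3-KO arrays it read 1.27, 0.97 and 0.67 before challenge and 0.63, 0.56 and 0.49 at day 3, with no overlap, as for 16.3% of all tested genes in that direction. Its response was 0.01 in WT (interval -0.38 to 0.39, limma adjusted p = 0.98) and -0.41 in smSocs3-KO (interval -0.80 to -0.03, adjusted p = 0.182). At day 3 Cd4 was 0.61 lower under the smSocs3-KO label (interval -0.99 to -0.22, adjusted p = 0.131), again with no overlap, as for 14.3% of all tested genes in that direction. A second Cd4 probe, spotted 10 times, was not well above background on any array, so the Cd4 reading has no second probe to set beside it, and the Cd3e reading rests on the 1 probe.

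Ms4a1, the B cell gene, behaved differently again. In WT mice it read -2.08, -2.18 and -2.29 before challenge and -3.50, -3.41 and -3.70 at day 3, with no overlap and a narrow spread in both groups. No overlap in that direction was found for 15.3% of all tested genes in WT. On the smSocs3-KO arrays the spread was wide, with -3.20, -1.55 and -1.63 before challenge and -4.67, -1.28 and -3.19 at day 3. The difference was -1.36 in WT (SE 0.69, interval -2.89 to 0.17, limma adjusted p = 0.237) and -0.92 in smSocs3-KO (interval -2.46 to 0.61, adjusted p = 0.42).

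**Figure D2:**
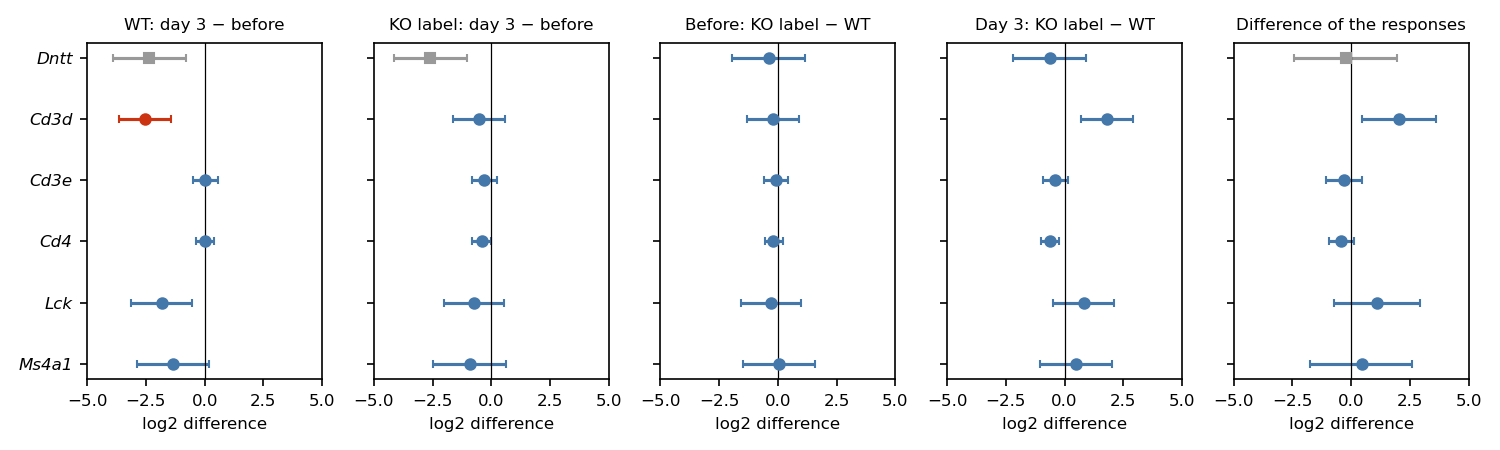
Log2 differences of the 6 tested members (x axis) in the 2 challenge responses, the 2 genotype differences and the difference of the responses. Bars are 95% confidence intervals, red marks limma adjusted p under 0.05, blue the other tested values and grey squares the Dntt values that chose the gene and were not tested. Cd3d in WT, at -2.54, is the only red point, and the Cd3e and Cd4 intervals are the narrowest.

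No tested member was called in the smSocs3-KO response (0 of 5 without Dntt, against 2.41% of all genes), before challenge between genotypes (0 of 6, against 0.0308%) or at day 3 between genotypes (0 of 6, against 1.09%). Before challenge the genotype differences of the 6 members ran from -0.39 for Dntt to 0.05 for Ms4a1. At day 3 they were 0.81 for Lck, 0.49 for Ms4a1 and -0.40 for Cd3e (limma adjusted p = 0.518, 0.766 and 0.437), beside those of Dntt, Cd3d and Cd4 given above. For the difference between the responses limma called 0 of the 22755 genes, with 568 higher and 691 lower at an unadjusted p under 0.05. Over all genes the median log2 difference was -0.04 in the WT response and -0.11 in the smSocs3-KO response.

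Some of the genes followed each other from array to array, in sets that overlapped. The correlations below are descriptions over 12 arrays in 4 groups that share a scaling and, within groups, slides, and no p is given. Dntt followed Rag1 with Pearson r = 0.95 and Spearman rho = 0.82, and with r = 0.94 when the 2 arrays farthest from the median of Dntt were left out. After subtraction of the group means r was 0.89, and among the 6 unchallenged arrays it was 0.93. Ccr9, a chemokine receptor of thymocytes, followed Dntt as closely (r = 0.97, rho = 0.90, without the 2 farthest arrays 0.95, after subtraction of group means 0.96). Its levels were -1.92, -1.06 and -3.34 in unchallenged WT and -2.09, -4.36 and -2.24 in unchallenged smSocs3-KO, so that replicate 3 was again the lowest of each group. At day 3 Ccr9 read -4.25, -3.42 and -4.12 in WT and -4.38, -4.86 and -4.91 in smSocs3-KO. Its responses were -1.82 and -1.81 (limma adjusted p = 0.109 and 0.13).

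Lck followed Dntt before challenge and not at day 3, when Dntt itself ran only from -4.07 to -2.71. The correlation was 0.97 (rho 0.94) over the 6 unchallenged arrays and -0.12 (rho -0.14) over the 6 day 3 arrays. Cd8a gave 0.95 and -0.23 (rho 0.83 and -0.37) and Cd3d 0.80 and -0.65 (rho 0.83 and -0.60). The Cd8a probe was well above background on 3 of the 12 arrays and on 0 day 3 arrays of either genotype. Cd3d was so on 1 of the 3 WT day 3 arrays. The day 3 correlations of both, and all those of Cd8a, thus include readings near background. The correlations of Dntt with Rag1 and Ccr9 were also lower at day 3 than before challenge, at 0.61 (rho 0.43) and 0.80 (rho 0.54). Rag1 was not well above background on any day 3 array. The part of the narrow Dntt range in these values was not tested. Over all 12 arrays Dntt had r = 0.79 with Lck and 0.86 with Cd8a, and 0.77 and 0.68 after subtraction of group means. With Cd3d, r over the 12 arrays was 0.56 (rho 0.47), which became 0.39 without the 2 farthest arrays and 0.32 after subtraction of group means. Among T cell genes, Lck followed Cd8a (r = 0.93, rho 0.85) and Cd3d (r = 0.87, rho 0.90), and Cd3d followed Cd3g (r = 0.94, rho 0.92). Cd3e followed Cd4 (r = 0.82, rho 0.88) but not Cd3d (r = -0.02, rho -0.01). Before scaling, the processed signal of Cd3e ran only from 286 to 384 over the 12 arrays and that of Cd4 from 475 to 876. The part of the shared scaling in their correlation was not tested.

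Ms4a1 did not follow Dntt. The correlation was 0.31 (rho 0.19) over 12 arrays and -0.33 after subtraction of group means, and it was -0.49 (rho -0.54) over the unchallenged arrays. It followed another B cell gene, Cd79a (r = 0.94, rho 0.95). With the T cell gene Cd3d, the correlation of Ms4a1 was 0.71 (rho 0.69) over 12 arrays and 0.59 after subtraction of group means. Over the unchallenged arrays it was -0.05. Cd79b, a chain of the B cell receptor complex, read -2.51, -1.48 and -1.42 in unchallenged WT, -2.70, -0.26 and -0.32 in unchallenged smSocs3-KO, and -2.65, -0.03 and -1.81 at day 3 under the smSocs3-KO label. On the unchallenged smSocs3-KO replicate 1, Dntt was high and both B cell genes low, on replicate 3 the reverse held, and on replicate 4 all 3 genes were high.

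**Figure D3:**
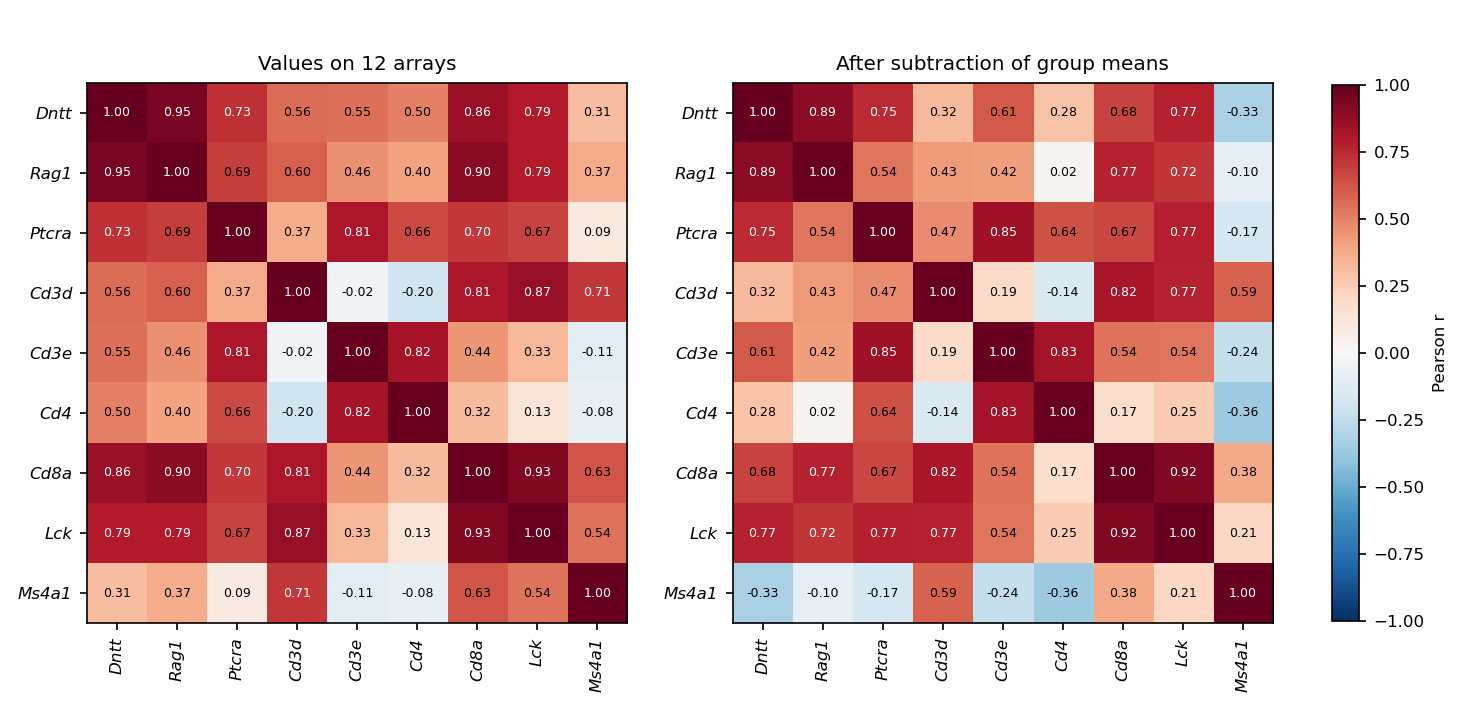
Pearson r between the 9 genes over the 12 arrays (left) and after subtraction of the 4 group means (right), on a colour scale from -1 to 1. Dntt and Rag1 (0.95 and 0.89), Lck and Cd8a (0.93 and 0.92) and Cd3e and Cd4 (0.82 and 0.83) stay high on both sides, whereas Dntt and Ms4a1 go from 0.31 to -0.33. The Rag1 probe was well above background on 4 arrays and the Cd8a probe on 3.

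The genes most like each tested member were taken by Pearson r over the 12 arrays among the genes well above background on all of them. For Dntt these were a probe named only by its position on chromosome 14 (r = 0.959), Frmd4b (0.941), BC068281 (0.938), 2310003H01Rik, now named Faap100 (0.937), and Prkd2 (0.934). None of these 5 was shared when Spearman rho or the values after subtraction of group means were used. The nearest genes to Ms4a1 were Cd79a (0.944), Hscb (0.935) and Cr2 (0.875), and those to Lck were a probe named ENSMUST00000103291 (0.950), Tbc1d10c (0.937) and Lat (0.927). For Cd3d they were the same ENSMUST00000103291 probe (0.919), Ptprcap (0.915) and Tbc1d10c (0.907). Cd3e and Cd4 were most like probes without a gene symbol, with r = 0.975 and 0.970.

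Marker lists of the cell types that carry these genes were set beside the members. Of the 8 immature thymocyte markers other than Dntt, between 3 and 7 were well above background on the unchallenged WT arrays and between 2 and 3 at day 3, and on the smSocs3-KO arrays between 3 and 6 and between 1 and 3. Their summed linear signal, in units of the array 75th percentile, ranged from 0.445 to 1.63 in unchallenged WT, 0.272 to 0.41 in WT at day 3, 0.342 to 1.01 in unchallenged smSocs3-KO and 0.425 to 0.566 in smSocs3-KO at day 3. Themis, which acts in thymocyte selection, was not well above background on any array, and Rag2 was on 1, the unchallenged WT replicate 2. Thymic epithelium was represented by 5 markers, of which Foxn1, its master transcription factor, and Psmb11, its cortical proteasome subunit, were not well above background on any array. Aire was well above background on 4 arrays and Prss16 on 1. Ccl25, a chemokine also made outside the thymus, was on all 12, with responses of 0.83 and 0.61 (limma adjusted p = 0.0695 and 0.167). Igll1, the surrogate light chain of early B progenitors, was not well above background on any array, and Vpreb1 was on all 12 with responses of 0.52 and 0.19 (limma adjusted p = 0.214 and 0.652).

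The 7 T cell markers, summed in the same way, ranged from 2.71 to 5.44 in unchallenged WT, 1.84 to 3.12 in WT at day 3, 2.61 to 4.22 in unchallenged smSocs3-KO and 1.88 to 3.66 in smSocs3-KO at day 3. All 7 were well above background on all 6 unchallenged arrays. The 5 B cell markers ranged from 0.755 to 0.929, 0.425 to 0.612, 0.544 to 1.63 and 0.35 to 1.97 in the same order of groups. The part of these cell types in the response of Dntt was not tested.

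Of the other tested genes of the machinery in which the Dntt protein works, none was called. Over all genes 4.67% were called in the WT response and 2.41% in the smSocs3-KO response. For lists this short, 0 calls is near those shares and is not read as a result about the list. Of 15 genes of V(D)J recombination and end joining, 13 were tested and none was called in either response, with medians of 0.23 in WT and 0.03 in smSocs3-KO without Dntt, against -0.04 and -0.11 for all genes. Xrcc4 and Lig4, which join the ends, had WT differences of -0.04 and 0.36 (limma adjusted p = 0.924 and 0.495). Of 17 immature thymocyte genes, 10 were tested, 0 were called in either response, again near those shares, and the medians without Dntt were -0.53 and -0.16. Cd8b1, the other chain of CD8, was well above background on all 6 unchallenged arrays, on none of the WT day 3 arrays and on 1 of the smSocs3-KO day 3 arrays. It was at least 2.65-fold higher before challenge than at day 3 in WT, where the measured difference was -1.99. Its probe passed the filter only through the unchallenged groups, where it was high, so no test of its response is given.

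Most tested genes of the T cell receptor complex and its signalling had day 3 levels below the unchallenged ones in both genotypes, and few were called. Of 19 genes, 17 were tested, 12 lay below 0 in WT, as did 53.1% of all genes, with a list median of -0.94, and 2 were called lower (1.17% of all genes), Cd3d and Cd3g (-1.99, SE 0.42, limma adjusted p = 0.0348). Cd3g read -2.40, -1.90 and -2.84 before challenge and -4.28, -4.23 and -4.60 at day 3 in WT. At day 3 it was well above background on 1 of the 3 WT arrays. In smSocs3-KO the median was -0.64, 15 lay below 0 (58.5% of all genes) and none was called lower. The 1 gene called higher there, where 1.57% of all genes were, was Thy1 (1.69, limma adjusted p = 0.0376), which fibroblasts also carry. Of 15 genes of mature and regulatory T cells, 10 were tested with medians of -0.68 and 0.19 and 0 calls in either response. Over all genes 4.67% and 2.41% were called.

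B lineage lists gave no call in any comparison. Over all genes 4.67% were called in the WT response and 2.41% in the smSocs3-KO response. Between genotypes the shares were 0.0308% before challenge and 1.09% at day 3. The B cell list (10 of 15 tested) had medians of -0.54 in WT and -0.47 in smSocs3-KO, the early B progenitor list (6 of 9 tested, 5 without Dntt) medians of -0.56 and -0.14 without Dntt, and the plasma cell list (6 of 7) medians of -0.11 and 0.18. Jchain, of the plasma cell list, had day 3 means of -4.98 in WT (SD 1.32) and -0.48 under the smSocs3-KO label (SD 2.18). Its probe passed the filter only through the latter group, so no test of this difference is given. NK and cytotoxic genes (4 of 11 tested) had medians of 0.05 and -0.08, again with 0 calls. In WT, 7 of the 10 tested mature T cell genes and 9 of the 10 tested B cell genes lay below 0, while 8 of the 10 pan-leukocyte genes lay above it, with medians of 0.77 in WT and 1.47 in smSocs3-KO for the latter list. Ptprc, which all nucleated blood cells carry, had responses of 0.66 and 1.48 (limma adjusted p = 0.355 and 0.0887).

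**Figure D4:**
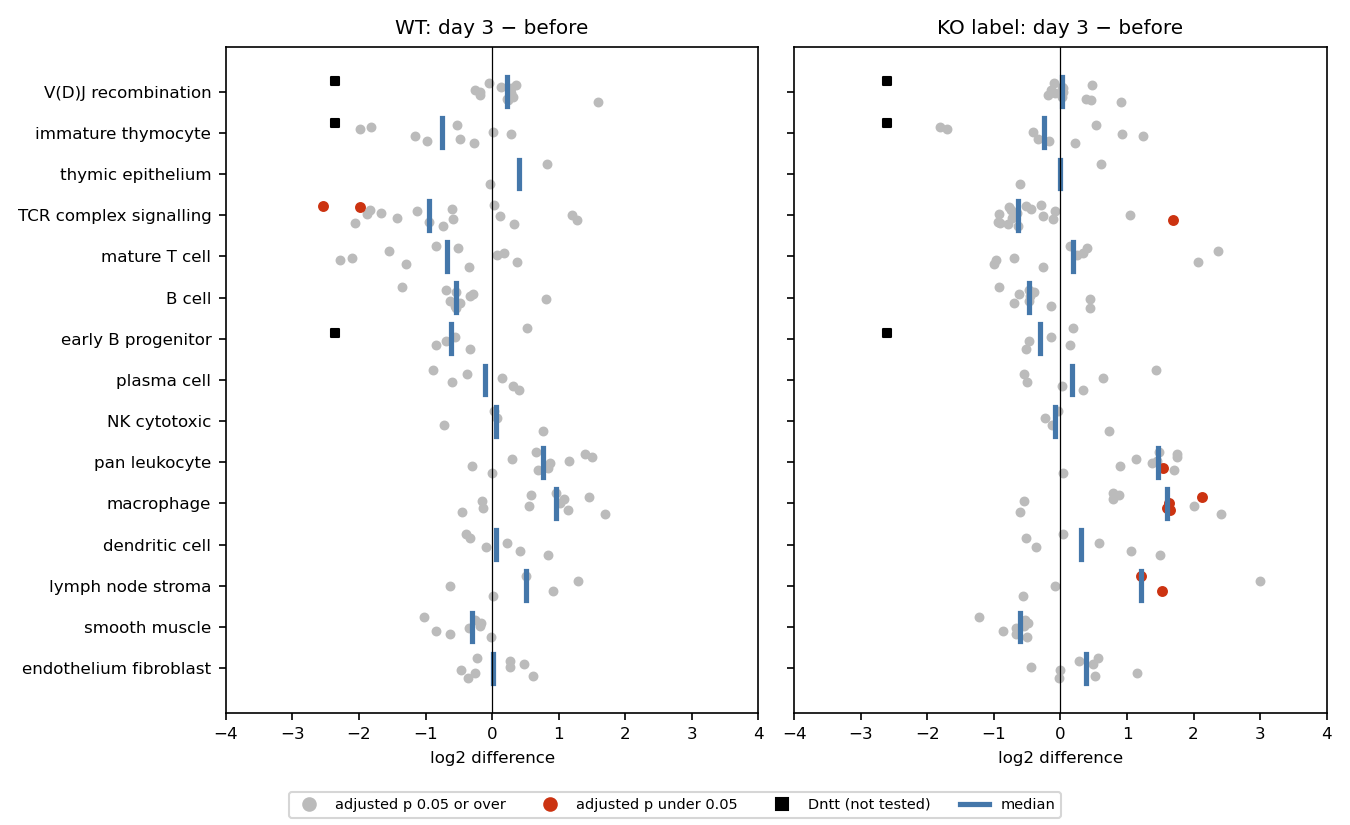
Challenge response (x axis, log2 difference of day 3 and unchallenged group means) of the tested genes of 15 gene lists in WT (left) and under the smSocs3-KO label (right). Points are genes, red where the limma adjusted p was under 0.05, black squares are Dntt, which was not tested, and blue bars are list medians. Dntt is placed at the values that chose it, -2.37 and -2.61, Rag1 is not shown because it did not pass the filter, and in WT the T cell receptor list has the lowest median, -0.94.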

How the data were processed

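Aortic total RNA of 12 samples was hybridised by the authors to one-colour Agilent arrays. Scanner files deposited by the authors hold 1 processed intensity for each spot, made by background subtraction with a correction for spatial trends. The file headers give Feature Extraction 10.7.1.1 and build mm9, and the submitters' processing notes name version 9.5.1.1. A deposited series table, which holds intensity values processed further by the authors, served only as an alternative. Between 55.4% and 61.2% of spots per array were well above background and none was saturated, and 3 arrays per group limit the precision.

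From these files, control spots and outlier spots were left out, log2 was taken, spots of a probe were averaged and the array 75th percentile was subtracted. A probe passed if some group had it well above background on each of its 3 arrays (32275 of 55681 did), and each gene was represented by its brightest such probe. The 4 group means were fitted over 22755 genes with limma 3.58.1 in R 4.3.3, with Benjamini-Hochberg adjustment over all genes and a call at adjusted p under 0.05. Dim members have lower bounds or a fit without the filter. The script was tested on simulated data.

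The members, the 15 gene lists (158 genes, 156 on the array, 3 of them under older symbols, 120 tested) and the tests were chosen with earlier results of these data known. Genes named were the members, the cell type markers, the first 3 tested genes of a list, up to 3 called genes per list and comparison, and the genes most like each member. Other genes named were chosen after their values were seen. Alternatives covered background correction, normalization, the dim probe filter, the probe rule, variance moderation, the arrays in the fit, slide, replicate number and leaving out each array. Another rule for probes with several spots and the percentile over probes were added after seeing the data. Some genes of the lists are not reported here by name.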

Additional observations from a re-analysis of the deposited data

How the results depend on the processing

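Over the alternatives, 681 tested values of the members were recomputed, of which 626 kept their direction and side of the threshold, 11 lost the call, 0 gained one and 44 changed sign. All 11 losses were those of Cd3d in WT and all 44 sign changes were of uncalled values. The cause of each change was not tested except where stated. The Cd3d call in WT was lost with normexp (-1.0, limma adjusted p = 0.0867), with no filter (adjusted p = 0.0706), with the replicate block (-2.68, adjusted p = 0.0844) and with only the WT arrays (adjusted p = 0.0799), and Cd3d was not tested when probes had to be well above background on all 12 arrays, so that 0 members were called in WT under these settings.

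Genes called in the WT response (1063) numbered 608 with normexp, 585 with quantile normalization, 614 with the authors' table, 10 with no filter, 1786 with trended and robust variances, 2295 with slide as a block and 0 with the replicate block or with only the 2 groups or slide 1 fitted. Leaving out single arrays gave 0 to 3667 genes and 0 to 1 members, with 0 genes without WT before challenge replicate 1 or 2 or WT day 3 replicate 1 or 3, 3 without WT before challenge replicate 3 or smSocs3-KO replicate 4 before challenge, 667 and 553 without smSocs3-KO day 3 replicate 2 and 3, and 2295 without smSocs3-KO replicate 1 before challenge. In the smSocs3-KO response (548) the counts were 857 with median scaling, 176 with no filter, 50 with slide as a block, 1 with the replicate block, 344 with only the 2 groups, 47 within slide 2 and 38 to 1948 without single arrays, lowest without unchallenged smSocs3-KO replicate 3 and highest without WT day 3 replicate 4. Before challenge (7) they were 4 with quantile normalization or the authors' table, 3 with probes above background on all 12 arrays, 0 with slide as a block or within slide 1, 1 with the replicate block and 1 to 14 without single arrays. At day 3 (247) they were 70 with no filter, 0 with slide as a block, 2 with the replicate block, 57 with only the 2 groups and 43 to 604 without single arrays. The interaction count of 0 became 10 without unchallenged smSocs3-KO replicate 4 and 1 without smSocs3-KO day 3 replicate 5, within a range of 0 to 10.

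Sign changes of uncalled values were as follows. In the WT response Cd4 was -0.01 with normexp, -0.07 with quantile normalization, -0.05 with the authors' table, 0.00 without WT before challenge replicate 2, -0.05 without replicate 3 and -0.08 without WT day 3 replicate 3, and Cd3e was -0.09 and -0.08 in the last 2 of these. In the smSocs3-KO response Cd3e was 0.01 with slide as a block, within slide 2 and without unchallenged smSocs3-KO replicate 1, and Cd3d was 0.09 with the replicate block. Before challenge, slide as a block and slide 1 alone both gave Dntt 0.71, Cd3e 0.52, Cd4 0.11, Lck 0.19 and Ms4a1 -1.02, median scaling gave Cd3e 0.04, and the replicate block gave Cd3e 0.01 and Ms4a1 -0.46. Without single arrays the values that turned were Dntt 0.15 and 0.42, Cd3d 0.00 and 0.13 (range over single arrays -0.43 to 0.13), Lck 0.15 and 0.21 (-0.77 to 0.21), Cd3e 0.06 and 0.08, and Ms4a1 -0.23, -0.19 and -0.00 (-0.23 to 0.59). At day 3, slide as a block gave Dntt 1.02, Cd3e 0.51 and Ms4a1 -1.12, and Ms4a1 was -0.39 without smSocs3-KO day 3 replicate 3 and 1.30 without replicate 2. The Ms4a1 interaction was 0.00 with normexp, -0.10 with slide as a block or without unchallenged smSocs3-KO replicate 1 and -0.45 and 1.25 without smSocs3-KO day 3 replicates 3 and 2.

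Of the 5 genes most like Dntt, 0 were shared with Spearman rho or after subtraction of group means, 2 with normexp, quantile normalization or the authors' table, 1 with median scaling and 1 to 5 without single arrays. Of the 15 of the other members, 7, 2, 8, 8 and 8 were shared with Spearman rho, subtraction of group means, normexp, quantile normalization and median scaling, and 8 to 13 without single arrays. Median scaling raised the median of all genes by 0.19 and 0.24 in the 2 responses. The replicate numbers were not used to pair the samples in the main fit. Of 11 same-numbered pairs, 4 had a correlation of deviations over 0.1 (-0.403 to 0.464). The median was 0.073, against -0.006 for other pairs from different groups. With 3 arrays per group these values cannot exclude a pairing. Signal over background limits Rag1, Ptcra and Cd8a.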

Other observations

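The macrophage and lymph node stroma lists had medians above 0 in both genotypes. Of 12 macrophage and monocyte genes, 11 were tested, with medians of 0.95 in WT and 1.60 under the smSocs3-KO label. In the smSocs3-KO response 4 were called higher by limma, where 1.57% of all genes were, namely Cd68 (2.12, adjusted p = 0.0393), a lysosomal protein of macrophages, Cd14 (1.63, adjusted p = 0.0422), a coreceptor for bacterial lipopolysaccharide, Cd163 (1.60, adjusted p = 0.0423), the haemoglobin scavenger receptor, and Mrc1 (1.65, adjusted p = 0.0412), the mannose receptor. In the WT response none was called, and 6 were higher at an unadjusted p under 0.05, as were 15.1% of all genes. Cd163 was also 1.76 higher at day 3 under the smSocs3-KO label than in WT (adjusted p = 0.0438). Was, an actin regulator of blood cells, rose in smSocs3-KO (1.54, adjusted p = 0.0393). The dendritic cell list (6 of 8 tested) had medians of 0.06 and 0.30 and 0 calls, against 4.67% and 2.41% of all genes.

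Of 8 lymph node stroma genes, 5 were tested, with medians of 0.51 in WT and 1.21 in smSocs3-KO. Ccl19, a chemokine that draws naive T cells and dendritic cells, rose in smSocs3-KO (1.21, limma adjusted p = 0.0391), as did Lyve1, a receptor of lymphatic endothelium that some macrophages also carry (1.53, adjusted p = 0.0347). Cxcl13, a chemokine of B cell follicles, differed most between single arrays. It read -4.66, -2.92 and 2.15 in unchallenged smSocs3-KO and -0.35, 0.09 and 3.83 at day 3, whereas in WT it was well above background on 1 of 6 arrays. The 8 smooth muscle genes had medians of -0.30 and -0.61 with no call, where 4.67% and 2.41% of all genes were called. The 8 genes of endothelium and adventitial fibroblasts had medians of 0.02 and 0.38. Dpt, a matrix protein of fibroblasts, was 1.97 higher at day 3 under the smSocs3-KO label (limma adjusted p = 0.0249).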
